A study of Mus musculus with 12 samples.

Results

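Copying a genome once per cell cycle depends on a set of proteins that load a helicase onto DNA, switch it on and synthesise both strands behind it. The genes for 43 of these proteins were examined in mouse embryonic stem cells (mESCs) after treatment to delete *Prdm10*. They were listed by name for their known roles in replication, and all 43 were found by symbol among 54146 genes. The rule itself used no measured value, but the list was chosen with earlier results of these data known. All cells, controls included, were C57BL/6 mESCs of the genotype Prdm10F/F; Rosa26-CreERT2. The Cre recombinase in these cells is made from the broadly active Rosa26 locus and stays inactive until hydroxytamoxifen (OHT) binds the receptor part fused to it. Cells received 50 nM OHT, or ethanol (EtOH) as vehicle, for 24 h and were collected at Day 2 or Day 4, with 3 libraries in each of the 4 groups. The study's methods describe its experiments in general as independent biological repeats, but the labels do not say whether the 3 libraries of a group came from separate cultures, so that p-values measure the spread between these libraries, which may in part be technical. OHT-treated cells without floxed alleles were not analysed here, so that an effect of the agent itself and of the deletion cannot be told apart.

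In the G1 phase, the origin recognition complex (ORC1 to ORC6) together with CDC6 and CDT1 places pairs of MCM2-7 rings on DNA, which licenses each origin. At the start of S phase, the CDC7-DBF4 kinase, TICRR and other factors bring CDC45 and the GINS complex to the rings and turn them into active helicases. DNA polymerase alpha with its primase starts each strand, polymerases delta and epsilon extend it on the PCNA clamp that RFC loads, RPA coats unwound DNA, and FEN1 and LIG1 join the Okazaki fragments. Many of these genes are transcribed under the control of E2F factors. mESCs have a short G1 phase and spend much of their cycle in S phase, and they express this gene set at high levels.

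The 12 libraries held 35017667 to 41409992 expected counts, and their 10 most abundant genes took 9.29% to 10.3% of them. *Prdm10* was higher in the libraries labelled OHT, at 801 ± 29.4 normalised counts (SD, n = 3) in EtOH and 2173 ± 80.3 in OHT at Day 2, and at 869 ± 45.8 and 2012 ± 67.5 at Day 4. A count over the whole gene does not show whether the floxed exon was removed, so that the groups are named by their labels. In mESCs of this genotype, the study reported recombination after OHT from DNA, from transcript of the floxed exon and from PRDM10 protein. Removal of the exon in these libraries was not tested here. The 10 pluripotency markers, summed, lay between 2485 and 2969 TPM in every library, and in OHT 4 of them were called lower and 1 higher at Day 2, and 1 lower and 7 higher at Day 4. The 8 markers of fibroblast feeder cells summed to at most 3.39 TPM. *Thy1* was the highest of them, at up to 2.84 TPM and 38 to 128 counts. *Col1a1*, *Col1a2*, *Col3a1* and *Pdgfrb* also had counts in every library, whereas *Lum* had none in 10 libraries, *Dcn* in 8 and *Postn* in 4. The sum of the 8 was 2.69 ± 0.458 TPM (SD, n = 3) in Day 4 EtOH and 1.28 ± 0.297 TPM in Day 4 OHT. Mitochondrial genes took 1.32% to 1.40% of the counts in Day 4 OHT and 1.73% to 1.98% elsewhere. The part of these differences in the Day 4 results was not tested. The 12 markers of extraembryonic and germ layer cells summed to 9.40 to 12.9 TPM.

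At Day 4, 22 of the 43 replication genes (51.2%) were lower in OHT than in EtOH of the same day, against 21.7% of the 11555 genes tested. Where treatments are compared, fell and rose mean this contrast within a day, not a change over time. Only 4 of the 43, *Dbf4*, *Pold1*, *Pole* and *Orc5* (9.30%), rose, against 23.5% of all genes tested. A gene was called where the DESeq2 adjusted p was below 0.05 and the mean normalised count above 100, which all 43 exceeded. Because replication genes are abundant, the shares were also taken over the 6056 genes with at least the mean count of *Gins3*, the least abundant of the set, and were then 28.2% lower and 26.4% higher. The falls were small. At one end *Rfc5* fell by 5.75% (log2 fold change -0.09), and at the other *Mcm4* fell by 30.9% (-0.53). The median log2 fold change of the 43 was -0.09, beside 0.01 over all genes tested. In bulk samples, fewer cells in S phase and less RNA per cell cannot be told apart. By flow cytometry, the study reported no significant change in cell cycle distribution after PRDM10 loss. Whether that holds for the cells of these libraries was not tested.

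At Day 2, 4 of the 43 fell, *Mcm4*, *Cdt1*, *Pold2* and *Orc2* (9.30%, against 10.6% of 11644 genes tested), and *Ticrr* rose (2.33%, against 9.17%). Both shares were below those of all genes, and with libraries scaled by total counts the split became 2 lower and 4 higher. That of all genes tested moved the same way, from 1240 lower and 1068 higher to 639 and 1391. The median of the 43 was -0.05, beside -0.03 over all genes. Only *Mcm4* and *Ticrr* were called at Day 2 under all 13 alternative analyses, which changed the tool, the scaling, the fit or the libraries. *Orc2* lost its call in 5 of them and *Cdt1* in 7. Both lost it without Day2_EtOH replicate 1 (DESeq2 adjusted p = 0.0744 and 0.130), without Day2_EtOH replicate 2 (0.0665 and 0.123) and without Day2_OHT replicate 2 (0.0734 and 0.0885), and *Cdt1* also without Day2_OHT replicate 1 (0.0888).

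**Figure D1:**
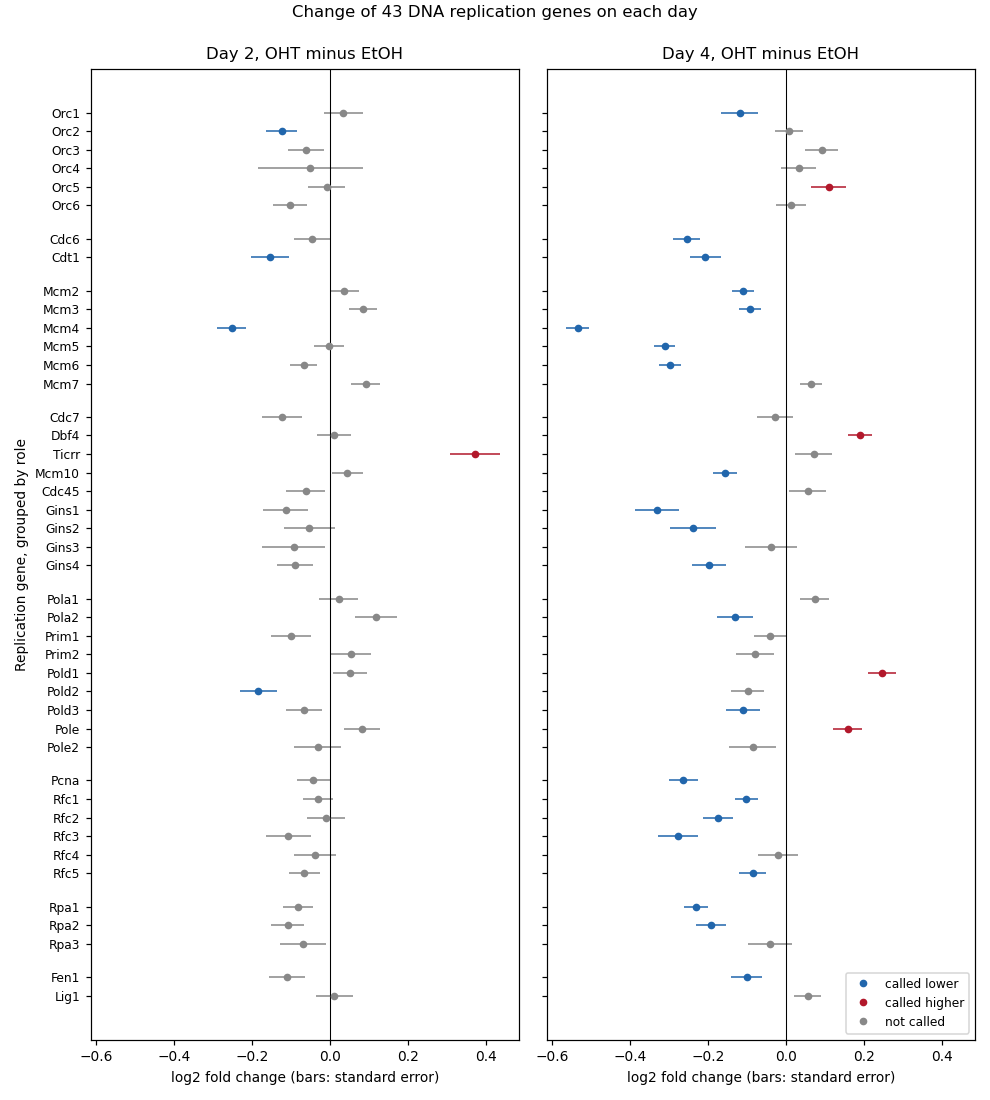
Log2 fold change of OHT relative to EtOH for each of the 43 replication genes at Day 2 (left) and Day 4 (right), grouped by role, with bars for the standard error and colours for the call. At Day 2, 4 genes were called lower and 1 higher, and at Day 4, 22 lower and 4 higher, with *Mcm4* farthest to the left on both days.

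Of the 6 genes for the MCM2-7 helicase, *Mcm2*, *Mcm3*, *Mcm4*, *Mcm5* and *Mcm6* fell at Day 4, *Mcm7* was not called, and at Day 2 *Mcm4* alone was called. *Mcm4* (ENSMUSG00000022673.5, minus strand, chr16:15623897-15637400 in GRCm38) encodes one of the 6 ring subunits. Its normalised counts at Day 2 were 13796, 13845 and 14026 in EtOH and 11374, 11761 and 11848 in OHT. At Day 4 they were 17132, 16375 and 16624 in EtOH and 11604, 11498 and 11591 in OHT. The groups did not overlap on either day, and the OHT libraries were at about the same level on both. The log2 fold change was -0.25 (DESeq2 adjusted p = 1.37e-09, SE 0.04) at Day 2 and -0.53 (DESeq2 adjusted p = 8.17e-71, SE 0.03) at Day 4, and the interaction of treatment and day was -0.28 (DESeq2 adjusted p = 2.26e-11, SE 0.04).

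*Mcm5* and *Mcm6*, which encode further subunits of the ring, fell at Day 4 only, and the difference between the days passed the test for both. *Mcm5* counts at Day 2 were 24587, 24497 and 23193 in EtOH and 23648, 23867 and 24664 in OHT, which overlapped. At Day 4 they were 27382, 27337 and 26665 in EtOH and 21869, 22003 and 21855 in OHT, with every OHT library below every EtOH library. The log2 fold changes of *Mcm5* were 0.00 (95% interval -0.08 to 0.07) and -0.31 (DESeq2 adjusted p = 1.67e-30, SE 0.03), with an interaction of -0.31 (DESeq2 adjusted p = 4.77e-12, SE 0.04). *Mcm6* counts were 35288, 34945 and 33826 in EtOH and 33421, 32560 and 33338 in OHT at Day 2, and 38911, 37904 and 37117 in EtOH and 31064, 31417 and 30446 in OHT at Day 4. Its OHT libraries lay lowest on both days, though only the Day 4 difference passed the test. The log2 fold changes of *Mcm6* were -0.07 (DESeq2 adjusted p = 0.196) and -0.30 (DESeq2 adjusted p = 3.61e-24, SE 0.03), with an interaction of -0.23 (DESeq2 adjusted p = 1.22e-07).

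*Mcm2* and *Mcm3* fell by less. *Mcm2* counts at Day 4 were 22538, 21774 and 21642 in EtOH and 20642, 20436 and 20136 in OHT (log2 fold change -0.11, DESeq2 adjusted p = 0.000629, SE 0.03). At Day 2 they overlapped, at 20039, 19716 and 19485 in EtOH and 19603, 20228 and 20933 in OHT. *Mcm3* went from 23826, 22831 and 22624 in EtOH to 21750, 21697 and 21685 in OHT at Day 4 (log2 fold change -0.09, DESeq2 adjusted p = 0.00617, SE 0.03). At Day 2 its counts were 22128, 22875 and 22190 in EtOH and 23518, 23492 and 24234 in OHT, a log2 fold change of 0.08 (DESeq2 adjusted p = 0.0914) that was not called. The interaction was -0.14 (DESeq2 adjusted p = 0.00410) for *Mcm2* and -0.17 (DESeq2 adjusted p = 9.33e-05) for *Mcm3*. *Mcm7* was the only one of the 6 with a positive log2 fold change at Day 4, whereas at Day 2 those of *Mcm2*, *Mcm3* and *Mcm7* were all above 0 and none was called. The counts of *Mcm7* were 15250, 15254 and 14965 in EtOH and 15926, 15935 and 16584 in OHT at Day 2, and 15855, 15600 and 15571 in EtOH and 16340, 16464 and 16449 in OHT at Day 4. The OHT libraries lay above the EtOH libraries on both days, with log2 fold changes of 0.09 (95% interval 0.02 to 0.16, DESeq2 adjusted p = 0.0666) and 0.06 (95% interval 0.01 to 0.12, DESeq2 adjusted p = 0.0505). Neither was called, but edgeR called *Mcm7* higher on both days (adjusted p = 0.0210 and 0.0403).

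**Figure D2:**
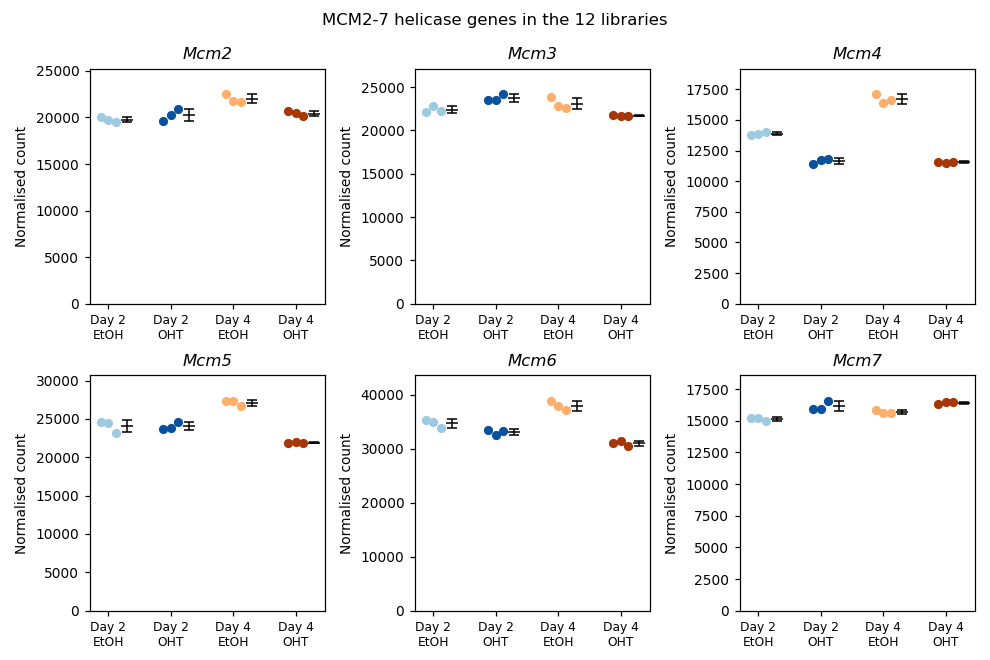
Normalised counts (linear axis from 0) of *Mcm2* to *Mcm7* in the 12 libraries, one point per library, with the group mean and SD (n = 3) beside the points. The Day 4 OHT libraries lie below the Day 4 EtOH libraries for all of these genes except *Mcm7*, and *Mcm4* is already lower at Day 2.

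The MCM2-7 proteins are present once each in a ring, but their transcripts were not at equal levels. On the length-scaled TPM scale, in Day 2 EtOH, *Mcm6* was highest at 261 ± 1.49 TPM (SD, n = 3), followed by *Mcm3* at 202 ± 8.43 and *Mcm5* at 196 ± 2.88, which did not differ beyond their spread. *Mcm7* at 141 ± 2.96 and *Mcm2* at 132 ± 1.02 came next, and *Mcm4* was lowest at 87.0 ± 2.62 TPM. At Day 4, *Mcm4* was at 115 ± 3.97 TPM in EtOH and 77.7 ± 1.49 in OHT, and *Mcm2*, the next lowest there in OHT, was at 147 ± 1.41. *Mcm4* thus had the lowest TPM of the 6 in each of the 4 groups. The sum of the 6 genes was 1019 ± 15.4 TPM in Day 2 EtOH, 1081 ± 18.6 in Day 2 OHT, 1219 ± 38.2 in Day 4 EtOH and 1052 ± 9.16 in Day 4 OHT. The TPM scale itself moved at Day 2, where the median log2 ratio of OHT to EtOH over all genes tested was 0.06, against -0.03 at Day 4. The higher Day 2 OHT sum was therefore not read as a change.

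**Figure D3:**
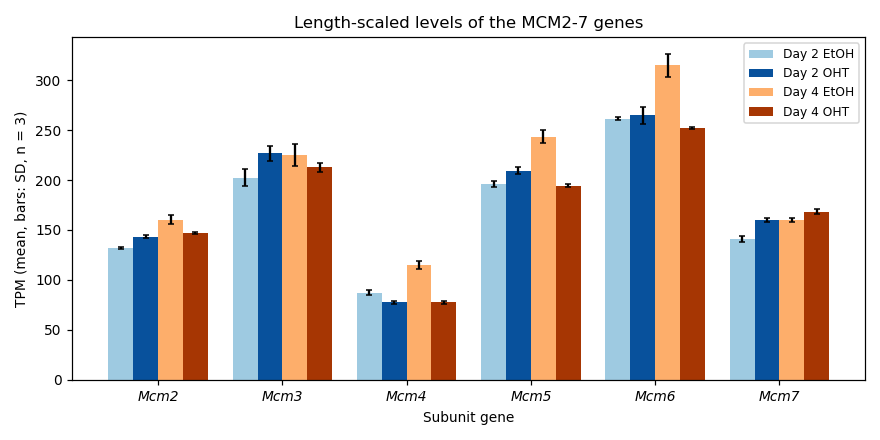
TPM of the MCM2-7 genes in the 4 groups, as bars from 0 for the mean with the SD (n = 3). *Mcm4* has the shortest bar of the 6 subunits in every group, from 77.4 TPM in Day 2 OHT to 115 TPM in Day 4 EtOH.

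Both genes for the licensing loaders fell at Day 4. *Cdt1* (ENSMUSG00000006585.3, plus strand, chr8:122568015-122573554 in GRCm38), whose protein brings MCM2-7 to ORC, had Day 2 counts of 4128, 4074 and 3790 in EtOH and 3538, 3557 and 3689 in OHT. Its Day 4 counts were 4777, 4765 and 4911 in EtOH and 4140, 4073 and 4336 in OHT. The OHT libraries lay below the EtOH libraries on both days, by log2 fold changes of -0.15 (DESeq2 adjusted p = 0.0162, SE 0.05) and -0.21 (DESeq2 adjusted p = 1.56e-06, SE 0.04). No difference between the days was detected for *Cdt1* (interaction -0.05, DESeq2 adjusted p = 0.610, SE 0.06). *Cdc6*, the ATPase that works with ORC in loading, overlapped at Day 2 with 4945, 4944 and 4668 in EtOH and 4795, 4590 and 4713 in OHT. At Day 4 it was at 6745, 6465 and 6534 in EtOH and 5615, 5514 and 5452 in OHT, a log2 fold change of -0.25 (DESeq2 adjusted p = 1.02e-11, SE 0.04). The interaction for *Cdc6* was -0.20 (DESeq2 adjusted p = 0.000360, SE 0.05).

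The genes for ORC itself changed little and not in 1 direction. At Day 4, *Orc1*, the subunit whose level varies through the cell cycle, was lower (log2 fold change -0.12, DESeq2 adjusted p = 0.0374) and *Orc5* higher (0.11, DESeq2 adjusted p = 0.0440). Neither call held under all alternatives, with adjusted p up to 0.271 and 0.194. *Orc2* counts at Day 2 were 9973, 9851 and 9963 in EtOH and 9388, 9064 and 8876 in OHT (log2 fold change -0.12, DESeq2 adjusted p = 0.0164). At Day 4 they were 12654, 11886 and 11468 in EtOH and 12046, 12208 and 12000 in OHT (0.01, DESeq2 adjusted p = 0.912), so that the groups overlapped. *Orc3* counts were 4622, 4466 and 4430 in EtOH and 4404, 4398 and 4152 in OHT at Day 2, and 3976, 3886 and 3729 in EtOH and 4193, 4184 and 3995 in OHT at Day 4. The *Orc3* OHT libraries lay below EtOH at Day 2 and above it at Day 4, with neither difference called. The interaction was called for *Orc2* (0.13, DESeq2 adjusted p = 0.0380) and *Orc3* (0.16, DESeq2 adjusted p = 0.0264), but was lost in 13 and 10 of its 18 alternatives. *Orc4* had 1 low library, Day2_OHT replicate 3 at 2294 counts against 3010 and 3045, in which *Pola1* and *Rpa3* were also lowest of the group. Over all genes, this library differed from its replicates by a chi-square per gene of 10.7 and 11.2, against 5.80 between those replicates. Day4_EtOH replicates 1 and 3 differed by 10.2. Neither *Orc4* nor *Orc6* was called in any of the comparisons.

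Of the 9 genes for origin firing, *Gins1*, *Gins2*, *Gins4* and *Mcm10* fell at Day 4 and *Dbf4* rose. GINS is a complex of 4 subunits that joins MCM2-7 and CDC45 in the active helicase. *Gins1* counts were 1766, 1691 and 1726 in EtOH and 1624, 1592 and 1572 in OHT at Day 2, and 1978, 1963 and 1836 in EtOH and 1537, 1598 and 1468 in OHT at Day 4. The Day 4 log2 fold change of *Gins1* was -0.33 (DESeq2 adjusted p = 6.49e-08, SE 0.06), second in size to *Mcm4*, and the interaction was -0.21 (DESeq2 adjusted p = 0.0140). *Gins2* (ENSMUSG00000031821.11, minus strand, chr8:120578633-120589304 in GRCm38) was at 1316, 1331 and 1302 in EtOH and 1331, 1211 and 1262 in OHT at Day 2. At Day 4 it was at 1954, 1783 and 1760 in EtOH and 1472, 1593 and 1600 in OHT, with no overlap (log2 fold change -0.24, DESeq2 adjusted p = 0.000348, SE 0.06). *Gins4* changed by -0.20 at Day 4 (DESeq2 adjusted p = 4.42e-05), whereas *Gins3*, the least abundant of the 43 genes at 7.88 ± 0.414 TPM in Day 2 EtOH, was at -0.04 (SE 0.07) and not called.

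*Mcm10*, a scaffold for helicase activation that is not part of the ring, overlapped on neither day. Its counts were 7506, 7619 and 7685 in EtOH and 7813, 7701 and 8011 in OHT at Day 2, and 10247, 9997 and 9947 in EtOH and 9084, 9015 and 9022 in OHT at Day 4. Only the Day 4 difference passed the test (log2 fold change -0.16, DESeq2 adjusted p = 2.39e-06, SE 0.03), and the interaction was -0.20 (DESeq2 adjusted p = 5.06e-06). *Ticrr*, which connects S phase kinase signals to origin firing, was the only one of the 43 that rose at Day 2. Its counts were 2398, 2664 and 2796 in EtOH and 3357, 3215 and 3592 in OHT at Day 2 (log2 fold change 0.37, DESeq2 adjusted p = 2.47e-07, SE 0.06), and 3938, 4185 and 4112 in EtOH and 4230, 4070 and 4572 in OHT at Day 4 (0.07, DESeq2 adjusted p = 0.254). The difference between the days was called (interaction -0.30, DESeq2 adjusted p = 0.00282). *Dbf4*, the regulatory subunit of the CDC7 kinase, rose at Day 4 from 10816, 10516 and 10287 in EtOH to 12116, 12088 and 11941 in OHT (log2 fold change 0.19, DESeq2 adjusted p = 1.02e-08, SE 0.03). At Day 2 *Dbf4* was at 10028, 9838 and 9747 in EtOH and 10357, 10025 and 9416 in OHT, and the interaction was 0.18 (DESeq2 adjusted p = 0.00186). Its partner *Cdc7* was not called on either day (log2 fold change -0.12, DESeq2 adjusted p = 0.0808, and -0.03, DESeq2 adjusted p = 0.720), nor was *Cdc45* (-0.06 and 0.06).

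Among the 9 polymerase and primase genes, the catalytic subunits of polymerases delta and epsilon, which extend the lagging and leading strands, rose at Day 4, while 2 accessory subunits fell. *Pold1*, the catalytic subunit of polymerase delta, was at 4591, 4641 and 4696 in EtOH and 5538, 5522 and 5487 in OHT at Day 4 (log2 fold change 0.25, DESeq2 adjusted p = 5.88e-11, SE 0.04). Its Day 2 counts were 4770, 4745 and 4560 in EtOH and 4825, 4854 and 4911 in OHT (0.05, DESeq2 adjusted p = 0.478), and the interaction was 0.20 (DESeq2 adjusted p = 8.68e-05). *Pole*, the catalytic subunit of polymerase epsilon, also rose at Day 4 (0.16, DESeq2 adjusted p = 0.000193, SE 0.04). *Pold2*, an accessory subunit of polymerase delta, fell at Day 2 (-0.18, DESeq2 adjusted p = 0.00147) and was just short of the threshold at Day 4 (-0.10, DESeq2 adjusted p = 0.0545). *Pold3* was lower at Day 4 (-0.11, DESeq2 adjusted p = 0.0395), a call that was lost in 9 of 13 alternatives. *Pola2*, the second subunit of polymerase alpha, was at 2183, 2262 and 2110 in EtOH and 2415, 2332 and 2361 in OHT at Day 2, and at 2520, 2569 and 2598 in EtOH and 2295, 2364 and 2375 in OHT at Day 4. Its libraries thus lay on opposite sides on the 2 days, and the Day 4 value (-0.13, DESeq2 adjusted p = 0.0164) and the interaction (-0.24, DESeq2 adjusted p = 0.000352) were called, but not the Day 2 value (0.12, DESeq2 adjusted p = 0.124). *Pola1*, *Prim1*, *Prim2* and *Pole2* were not called on either day.

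The sliding clamp and 4 of the 5 genes of its loader fell at Day 4, and none of these 6 genes was called at Day 2. *Pcna*, which tethers the polymerases to DNA and is a common marker of proliferating cells, was at 15769, 15075 and 14838 in EtOH and 15212, 15051 and 14081 in OHT at Day 2. At Day 4 it was at 16444, 15384 and 14840 in EtOH and 13157, 13047 and 12762 in OHT, with no overlap. The log2 fold change at Day 4 was -0.26 (DESeq2 adjusted p = 1.90e-11, SE 0.04) and the interaction -0.22 (DESeq2 adjusted p = 0.00172). *Rfc3* changed by -0.28 (DESeq2 adjusted p = 9.66e-07, SE 0.05), *Rfc1* by -0.10 and *Rfc5* by -0.09. *Rfc2* went from 4042, 4016 and 3978 in EtOH to 3580, 3586 and 3525 in OHT at Day 4 (-0.17, DESeq2 adjusted p = 5.46e-05). At Day 2 *Rfc2* overlapped, at 3494, 3664 and 3422 in EtOH and 3446, 3521 and 3542 in OHT, and its interaction was -0.16 (DESeq2 adjusted p = 0.00918). *Rfc4* was at -0.02 (SE 0.05) at Day 4 and was not called.

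Of the RPA genes, whose products form the trimer that coats single-stranded DNA, *Rpa1* and *Rpa2* fell at Day 4 and *Rpa3* was not called (-0.04, SE 0.06). *Rpa1* counts were 17073, 16893 and 16628 in EtOH and 15699, 15580 and 16543 in OHT at Day 2, and 20989, 20317 and 19975 in EtOH and 17546, 17708 and 17088 in OHT at Day 4. The OHT libraries lay below on both days, by more at Day 4 (log2 fold change -0.23, DESeq2 adjusted p = 5.55e-13, SE 0.03) than at Day 2 (-0.08, DESeq2 adjusted p = 0.143), and the interaction was -0.15 (DESeq2 adjusted p = 0.00582). *Rpa2* changed by -0.19 at Day 4 (DESeq2 adjusted p = 8.17e-06). *Fen1*, the flap endonuclease of Okazaki fragment maturation, was lower at Day 4 (-0.10, DESeq2 adjusted p = 0.0324) and *Lig1*, the ligase of the same step, was not called (0.06, DESeq2 adjusted p = 0.213).

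**Figure D4:**
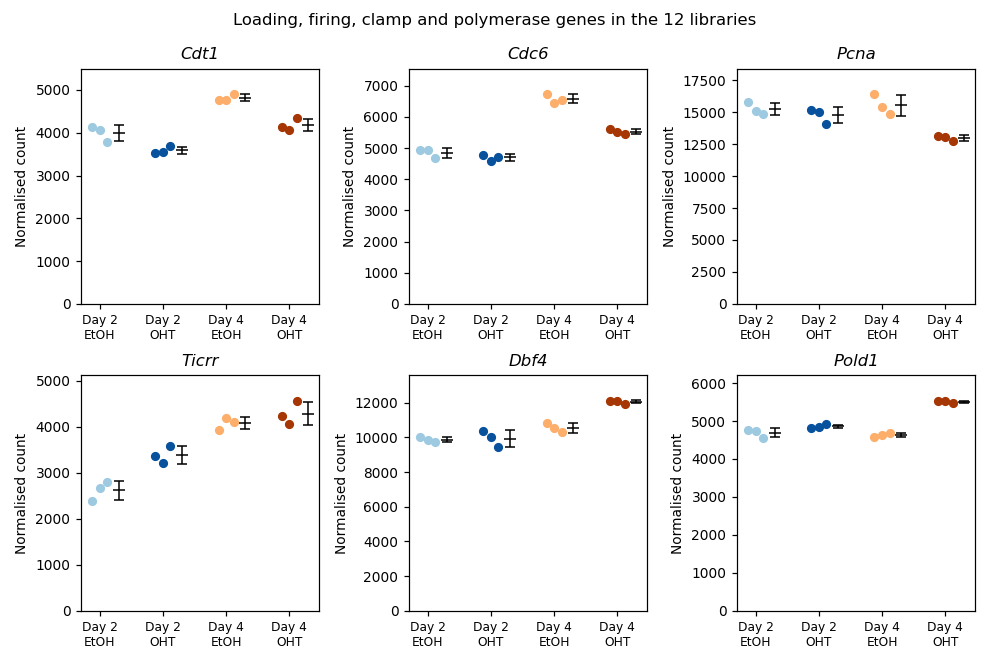
Normalised counts (linear axis from 0) of *Cdt1*, *Cdc6*, *Pcna*, *Ticrr*, *Dbf4* and *Pold1* in the 12 libraries, one point per library, with the group mean and SD (n = 3) beside the points. *Cdt1*, *Cdc6* and *Pcna* are lower and *Dbf4* and *Pold1* higher in Day 4 OHT than in Day 4 EtOH, and *Ticrr* is higher in OHT at Day 2.

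Of the 22 genes that fell at Day 4, 16 were called lower under all 13 alternatives: *Cdc6*, *Cdt1*, *Mcm2*, *Mcm3*, *Mcm4*, *Mcm5*, *Mcm6*, *Mcm10*, *Gins1*, *Gins2*, *Gins4*, *Pcna*, *Rfc2*, *Rfc3*, *Rpa1* and *Rpa2*. The other 6, *Orc1*, *Pola2*, *Pold3*, *Rfc1*, *Rfc5* and *Fen1*, each lost the call in at least 1, with *Rfc1* reaching an adjusted p of 0.0534 without Day4_OHT replicate 1. Leaving out 1 library at a time gave 16 to 20 genes lower. Reads shared with other genes were few, since the posterior SD of the count was at most 0.350% of the count in any library, for *Pole2*. The effective length in OHT relative to EtOH at Day 4 ran from 0.949 for *Rfc1* to 1.04 for *Pole*. In TPM, which allows for length, *Rfc1* was at 59.4 ± 1.66 in Day 4 EtOH and 57.4 ± 2.05 in Day 4 OHT (SD, n = 3). *Pole* was at 45.8 ± 1.49 and 48.4 ± 1.32. Of the 16, *Mcm3* alone overlapped in TPM at Day 4, with 234, 228 and 214 in EtOH and 210, 210 and 218 in OHT. Its effective length ratio was 0.977. The alternative that removed a length trend used 1 mean length per gene and so did not allow for such shifts. By the interaction of treatment and day, 13 of the 43 (30.2%, against 13.6% of 11616 genes tested) had a more negative effect of OHT at Day 4 than at Day 2, and 4 (9.30%, against 18.7%) a more positive one. The 4 were *Orc2*, *Orc3*, *Dbf4* and *Pold1*. With libraries scaled by total counts, the split was 20 and 2, and that of all genes tested moved the same way, from 1574 lower and 2173 higher to 2098 and 1664.

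The EtOH libraries alone show how the set moved between the days without OHT. From Day 2 to Day 4, 26 of the 43 genes rose (60.5%, against 20.6% of 11572 genes tested) and 2 fell, *Orc3* and *Pold2* (4.65%, against 20.5%). Over the 6303 genes at least as abundant as *Gins3*, 25.5% rose. The median log2 fold change of the 43 was 0.15, beside 0.00 over all genes. The highest values were those of *Ticrr* (0.64, DESeq2 adjusted p = 1.28e-28, SE 0.06), *Gins2* (0.47, DESeq2 adjusted p = 1.80e-13, SE 0.06), *Cdc6* (0.44, DESeq2 adjusted p = 5.85e-25, SE 0.04) and *Mcm10* (0.40, DESeq2 adjusted p = 1.39e-29, SE 0.03). *Mcm4* rose by 0.26 (DESeq2 adjusted p = 1.11e-14) and *Mcm5* by 0.17 (DESeq2 adjusted p = 5.82e-06), whereas *Mcm7* was at 0.05 (DESeq2 adjusted p = 0.279) and *Pcna* at 0.03 (DESeq2 adjusted p = 0.671). This comparison uses the same Day 4 EtOH libraries as the Day 4 comparison of OHT with EtOH, so that their values are given side by side and were not set against each other by a test. Of the 22 genes lower in OHT at Day 4, 18 were among the 26 that rose in EtOH, an overlap that the shared libraries can raise. The group means of *Mcm5*, for example, were 24092 and 27128 in EtOH and 24060 and 21909 in OHT at Day 2 and Day 4, and those of *Cdc6* were 4852 and 6581 in EtOH and 4699 and 5527 in OHT. From Day 2 to Day 4, *Mcm5* thus rose in EtOH and fell in OHT, whereas *Cdc6* rose in both, by less in OHT. Within the Day 4 EtOH group, replicate 1 had the highest TPM sum over the 43 genes (3861) and replicate 3 the lowest (3574). Without Day4_EtOH replicate 1, the median of the 43 for OHT relative to EtOH at Day 4 was -0.06.

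**Figure D5:**
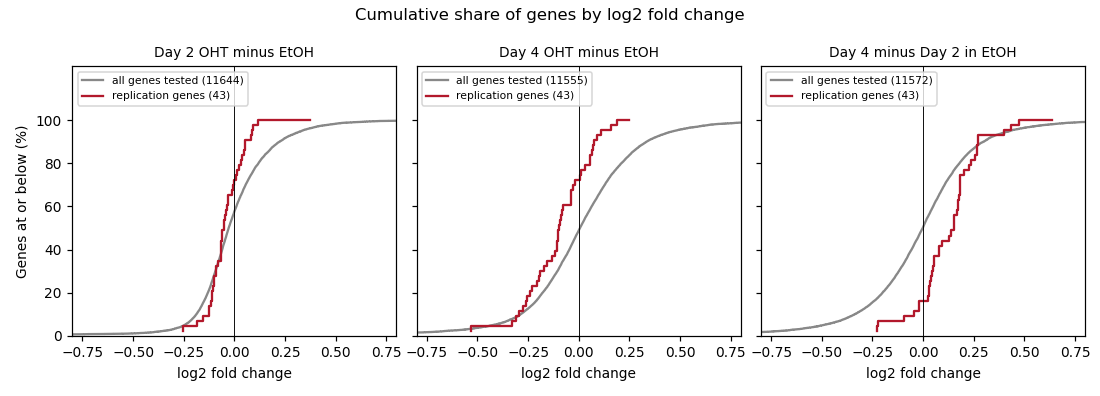
Cumulative share (%) of the 43 replication genes (red) and of all genes tested (grey) at or below each log2 fold change, for OHT relative to EtOH at Day 2 and at Day 4 and for Day 4 relative to Day 2 in EtOH. The red curve lies mostly left of the grey at Day 4 of treatment (median -0.09 against 0.01) and right of it between the days in EtOH (median 0.15 against 0.00).

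Genes that act beside this set were taken from 5 lists written from general knowledge, and their shares are to be read against the 21.7% of all genes tested that were lower and the 23.5% that were higher at Day 4, and the 10.6% and 9.17% at Day 2. Of the 25 other replication proteins above the minimum count, 9 fell (36.0%) and 2 rose (8%) at Day 4, and 1 fell (4.00%) at Day 2. They included *Timeless*, a fork protection protein (-0.39 at Day 2 and -0.34 at Day 4), its partner *Tipin* (-0.20 at Day 4) and *Recql4* (-0.16), with *Top1*, a topoisomerase (0.18), and *Mcm8*, a helicase outside the MCM2-7 ring (0.13), as the 2 that rose. Of the 12 genes for deoxynucleotide supply, 9 fell (75.0%) and 1 rose (8.33%) at Day 4, and 2 fell (16.7%) and 1 rose at Day 2. *Dut*, the dUTPase that keeps uracil out of DNA, changed most, from 8113, 7713 and 7509 normalised counts in EtOH to 1946, 1872 and 1859 in OHT at Day 2, and from 8836, 8411 and 8155 to 1313, 1414 and 1405 at Day 4. Its log2 fold changes were -2.04 (SE 0.05) and -2.62 (SE 0.05). *Samhd1*, which degrades deoxynucleotides, changed by -0.24 at Day 4. *Nme1* (-0.25) and *Nme2* (0.18) are neighbouring genes of similar sequence, and the sharing of reads between them was not checked.

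Of the 10 genes for chromatin behind the fork, 6 fell (60.0%) and none rose at Day 4, and 4 fell (40.0%) at Day 2. *Slbp*, which binds histone messages (-0.63 at Day 2 and -0.65 at Day 4), *Dnmt1*, the maintenance DNA methyltransferase (-0.48 and -0.65), and *Asf1b*, a histone chaperone (-0.17 at Day 4), had the most negative Day 4 values. Of the 23 regulators of S phase, 10 fell (43.5%) and 3 rose (13%) at Day 4, and 3 fell (13%) and 2 rose (8.70%) at Day 2. *E2f2* (-0.54), *E2f7* (-0.47) and *E2f8* (-0.46) had the most negative Day 4 values. E2F2 is an activating E2F, whereas E2F7 and E2F8 repress E2F targets, and *E2f7* had been higher at Day 2 (0.31, DESeq2 adjusted p = 0.00776). The 3 that rose were *Rb1*, which restrains E2F factors (0.27), *Cdkn1b*, an inhibitor of cyclin-dependent kinases (0.23), and *Fbxo5*, an inhibitor of the anaphase-promoting complex (0.14). Of the 10 replication checkpoint genes, *Chek1* (-0.14) and *Hus1* (-0.11) fell at Day 4, 2 of the 10, a share close to that of all genes, and *Atr*, the kinase that senses stalled forks, rose (0.22), whereas *Atr* alone was called at Day 2, when it was lower (-0.14, DESeq2 adjusted p = 0.0210).

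The study's ChIP-seq list of PRDM10-bound genes, which did not use these libraries, held 3 of the 43 genes, *Mcm4*, *Cdt1* and *Gins2*. This was 6.98% of the replication genes and 0.474% of the genes on the list, and 3.67% of the genes tested at Day 4 were on it. The 3 fell at Day 4 by 0.53, 0.21 and 0.24 on the log2 scale, and *Mcm4* and *Cdt1* were also lower at Day 2, whereas *Gins2* was not called there (-0.05, 95% interval -0.18 to 0.07). The Day 2 call of *Mcm4* held in all 13 alternatives, and that of *Cdt1* was lost in 7. The other 19 genes that fell at Day 4 were not on the list, *Mcm5*, *Mcm6*, *Pcna*, *Cdc6* and *Gins1* among them. From the neighbouring lists, *Dut*, *Slbp*, *Dnmt1*, *Timeless*, *Ssrp1* and *Rnaseh2a* were on it. *Ssrp1* was lower at Day 4 (-0.12), and *Rnaseh2a* was not called on either day (0.01 and -0.01).

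Because many members fell together at Day 4, their promoters were searched for letters of the E2F type. RefSeq windows of GRCm38.p6, from 250 bases before to 50 after the gene start, were at hand for 36 of the 43 genes, and the 7 without an entry were *Mcm4*, *Gins1*, *Gins2*, *Gins4*, *Prim2*, *Pole* and *Rfc2*. Where a gene had several windows, the one listed first was used. Its RefSeq start can differ from the GENCODE start behind the other coordinates. For *Mcm7*, the GENCODE start (chr5:138172422) lies outside the window searched (chr5:138171834-138172133). The GENCODE starts of *Mcm5*, *Cdc6*, *Rpa1*, *Fen1* and *Lig1* also lie outside their windows. Motif positions below count from the RefSeq start, and matches near another start would be missed. The motifs searched were TTTGGCGC, TTTCGCGC, TTTCCCGC and TTTGCCGC on both strands, and TTTGGCGC and TTTCGCGC on opposite strands can overlap. At least 1 of them stood in 14 of the 36 windows (38.9%) and in 2.32% of the windows of 27025 genes. The 27025 include genes not tested here, and many replication genes are known E2F targets. That contrast therefore does not bear on the change at Day 4. A match was found in 8 of the 17 genes that fell at Day 4 and in 6 of the 19 that did not. The difference between these shares was not tested. The windows of 5 genes are printed 5′ to 3′ on the gene's strand up to 30 bases after the start, with motifs in capitals. They are *Mcm5* (chr8:75109259-75109538, plus strand) and *Mcm6* (chr1:128359676-128359955, minus strand), which fell at Day 4, *Mcm7* (chr5:138171854-138172133, minus strand), which did not, *Pcna* (chr2:132253151-132253430, minus strand), which fell and has no match, and the PRDM10-bound *Cdt1* (chr8:122567765-122568044, plus strand), whose only match starts 32 bases after the start and lies beyond the stretch shown.
Cdt1: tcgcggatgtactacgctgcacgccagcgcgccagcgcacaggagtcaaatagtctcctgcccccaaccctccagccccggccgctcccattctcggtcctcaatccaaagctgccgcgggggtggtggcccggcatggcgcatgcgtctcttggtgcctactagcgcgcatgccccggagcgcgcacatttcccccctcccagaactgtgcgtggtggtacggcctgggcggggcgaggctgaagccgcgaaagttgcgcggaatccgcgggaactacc
Mcm5: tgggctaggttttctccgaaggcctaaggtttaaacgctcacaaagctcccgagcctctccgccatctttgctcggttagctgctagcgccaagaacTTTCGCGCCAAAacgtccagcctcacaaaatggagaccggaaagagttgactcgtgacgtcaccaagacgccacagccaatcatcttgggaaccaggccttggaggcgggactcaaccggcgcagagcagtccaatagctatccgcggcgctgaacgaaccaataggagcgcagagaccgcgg
Mcm6: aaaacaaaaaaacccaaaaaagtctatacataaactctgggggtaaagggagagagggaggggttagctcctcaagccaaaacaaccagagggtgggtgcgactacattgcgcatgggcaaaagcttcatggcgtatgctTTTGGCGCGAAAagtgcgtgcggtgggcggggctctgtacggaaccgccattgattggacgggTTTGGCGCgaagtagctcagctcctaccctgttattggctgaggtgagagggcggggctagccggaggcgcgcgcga
Mcm7: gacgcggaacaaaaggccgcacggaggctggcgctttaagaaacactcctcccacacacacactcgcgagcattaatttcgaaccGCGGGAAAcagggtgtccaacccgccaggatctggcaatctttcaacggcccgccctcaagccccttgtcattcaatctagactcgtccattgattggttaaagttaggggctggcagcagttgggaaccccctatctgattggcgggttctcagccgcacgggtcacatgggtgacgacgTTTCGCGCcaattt
Pcna: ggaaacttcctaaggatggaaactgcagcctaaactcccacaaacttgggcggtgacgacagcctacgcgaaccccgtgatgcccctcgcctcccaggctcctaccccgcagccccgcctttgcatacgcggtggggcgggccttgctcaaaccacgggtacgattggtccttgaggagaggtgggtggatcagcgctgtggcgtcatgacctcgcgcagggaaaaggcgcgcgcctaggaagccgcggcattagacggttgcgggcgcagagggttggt
In *Mcm5* the 2 matches overlap on opposite strands and start 153 and 149 bases before the gene start. *Mcm6* holds such an overlapping pair and a further TTTGGCGC that starts 47 bases before the start. *Mcm7*, which was not called, holds TTTCCCGC on the opposite strand and TTTCGCGC just after the start. These are matches of letters in a window, and binding of a factor there was not measured here.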

How the data were processed

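RNA-seq libraries of Prdm10F/F; Rosa26-CreERT2 mESCs were made by the submitters, with 3 libraries for each of EtOH and OHT at Day 2 and Day 4. Per the labels and the study's methods, reads were aligned with STAR (2.6.0c) to GRCm38.p6 with GENCODE vM18 and quantified with RSEM. The deposited per-library files hold the authors' estimated counts (RSEM expected counts per gene), which are not normalised. They also hold the authors' TPM values, which are scaled to gene length and library, and the deposited posterior SDs and effective lengths, which were used as checks on read sharing and length. The deposited comparison tables hold fold changes and p-values from the authors' DESeq2 (1.22.2) runs. Only their gene names were used.

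Expected counts were rounded and fitted over all genes with DESeq2 (1.42.0, R 4.3.3), for each comparison on its own libraries and for the interaction on all 12. Log2 fold changes were not shrunk. Genes with an adjusted p below 0.05 (Benjamini-Hochberg over all genes, independent filtering at 0.1) were called where their mean normalised count exceeded 100. Normalised counts of single libraries use size factors set over the 12 libraries. Depth was 35017667 to 41409992 counts, and reads without molecular identifiers are not independent molecules. edgeR (4.0.16) quasi-likelihood, TMM and total-count scaling, removal of a length trend (loess span 0.3 on counts with 0.5 added), all libraries in 1 fit, a replicate block, no minimum mean and each library left out were alternatives. Coordinates came from the GENCODE vM21 annotation of GRCm38, and promoters from RefSeq. The 43 genes, the other lists and the tests were chosen with earlier results of these data known. Counts are given library by library for genes called the same way on both days or by the interaction, for PRDM10-bound genes, and for *Mcm2* to *Mcm7* and *Pcna*. From each neighbouring list, up to 3 genes with the most positive and 3 with the most negative called Day 4 values are named, and any other gene was named after its values were seen.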

Additional observations from a re-analysis of the deposited data

Results flagged for a closer look

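For 17 of the 43 replication genes, the log2 effect of OHT differed between the days by the test of the interaction (DESeq2 adjusted p below 0.05). It was more negative at Day 4 for 13. Among the helicase genes the differences were -0.1441 for *Mcm2*, -0.1734 for *Mcm3*, -0.2787 for *Mcm4*, -0.306 for *Mcm5* and -0.2266 for *Mcm6*. For genes of helicase loading and activation they were -0.2049 for *Cdc6*, -0.1991 for *Mcm10*, -0.2139 for *Gins1* and -0.2981 for *Ticrr*, and of these *Ticrr* was higher in OHT at Day 2 and not called at Day 4. At the fork they were -0.2439 for *Pola2*, -0.2174 for *Pcna*, -0.1606 for *Rfc2* and -0.146 for *Rpa1*.

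The effect was more positive at Day 4 for the other 4, by 0.134 for *Orc2*, 0.1553 for *Orc3*, 0.1838 for *Dbf4* and 0.1972 for *Pold1*. Of the 17, 11 were called under all 18 alternatives, namely *Cdc6*, *Mcm3*, *Mcm4*, *Mcm5*, *Mcm6*, *Mcm10*, *Pola2*, *Pcna*, *Rpa1*, *Dbf4* and *Pold1*. *Orc2* lost its call in 13, *Orc3* in 10, *Gins1* in 6, and *Mcm2*, *Ticrr* and *Rfc2* in 1 each.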

How the results depend on the processing

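No log2 fold change of the 43 genes with a call changed sign in any alternative. At Day 2, the count of lower genes was 4 in the fits reported and became 7 with edgeR, 2 with total counts, 9 with all 12 libraries in 1 fit, and 2 to 5 with a library left out. The count of higher genes, 1 as reported, became 4 with edgeR, 2 with TMM factors, 4 with total counts, 2 with the length trend removed and 4 with all 12 libraries in 1 fit. At Day 4, edgeR called 7 genes higher in place of 4, and leaving out a library gave 16 to 20 lower genes and 3 to 6 higher. By the interaction, total counts gave 20 lower and 2 higher in place of 13 and 4, and leaving out a library gave 12 to 15 lower and 2 to 6 higher. The cause of these differences was not tested.

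Replicate numbers were not taken to pair the samples. Correlations of deviations from the group means between same-numbered libraries ran from -0.25 to 0.16 for EtOH with OHT within a day, from -0.03 to 0.29 for Day 2 with Day 4 in EtOH, and from -0.43 to 0.01 in OHT. With a replicate block, Day 2 had 2 lower genes, Day 4 had 17 lower and 3 higher, and the interaction 11 lower and 2 higher. The block with the length trend removed gave 2 lower genes at Day 2 and 2 higher by the interaction. With 3 libraries a group, differences of a few percent lie near the threshold, as for *Mcm7*.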

Other observations

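The gene next to *Mcm4* moved the other way. *Prkdc*, which encodes the catalytic subunit of the DNA-dependent protein kinase, starts 466 bases from *Mcm4* on the opposite strand, and both are on the list of PRDM10-bound genes. It was singled out after its values were seen. The study assigned peaks to genes by distance, so that a single peak between *Mcm4* and *Prkdc* could put both on the list. *Prkdc* rose by 0.25 on the log2 scale at Day 2 (DESeq2 adjusted p = 5.52e-05, SE 0.05) and by 0.32 at Day 4 (DESeq2 adjusted p = 2.17e-06, SE 0.06), whereas *Mcm4* was at -0.25 and -0.53.

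Non-overlap of the libraries is a count that needs no test, but it was taken on normalised counts and so depends on the scaling. At Day 4, every OHT library lay below every EtOH library for 23 of the 43 genes and above for 6, beside 29.5% and 33.5% of the genes tested. At Day 2 the counts were 18 below and 8 above, beside 26.9% and 18.7%.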
